A study of Mus musculus with 40 samples.

Results

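The livers of 8 wild-type (Wt) mice were compared: 4 mice given 30 μmol/kg b.wt. CDDO-Im and 4 given 300 μmol/kg b.wt. D3T, out of 40 mice on 40 arrays in the whole series. The mice were chosen by treatment, dose and genotype alone, and no measured value entered the choice. All were 12-week-old C57BL/6J males on a purified diet, gavaged 3 times over 5 days and killed 24 h after the last gavage. CDDO-Im is the imidazolide of a synthetic triterpenoid and D3T is a dithiolethione, and both are used as chemopreventive activators of the transcription factor Nrf2. The doses differed by design, so every difference below is one between these doses and not between the compounds at equal dose. For context, values are also given for 4 CDDO-Im 30 mice and 4 D3T mice that lack Nrf2 throughout the body (Nrf2-/-, or Nrf2-null), and for 4 vehicle-treated Wt mice. The labels call the 4 mice of a group biological replicates. The animal numbers of the 8 Wt mice ran on from each other, whereas the Wt vehicle mice carried numbers of another range, so a difference from vehicle cannot be told apart from a difference between those ranges of animals.

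In the resting cell the adaptor Keap1 marks Nrf2 for destruction. Electrophiles that modify cysteines of Keap1 let Nrf2 build up, enter the nucleus and, with a small Maf partner, bind antioxidant response elements of genes for conjugating enzymes, glutathione and thioredoxin metabolism and drug efflux. The liver is also the main site of lipid synthesis and oxidation and of the secretion of plasma proteins, which are governed by SREBP factors, the fatty acid receptor PPARα and the folding capacity of the endoplasmic reticulum.

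The arrays held 9695 genes above the expression minimum, and Nfe2l2, which encodes Nrf2, checked the genotype: its log2 signal spanned 10.94 to 11.65 over the 8 Wt mice, against 2.78 to 3.09 without Nrf2. In Wt liver 2967 genes differed between the treatments (30.6%; limma, Benjamini-Hochberg adjusted p under 0.05). CDDO-Im 30 gave the higher signal for 431 of them (4.45% of all genes) and the lower for 2536 (26.2%). A 2-fold or larger difference was reached by 57 of the genes with the higher signal and 199 of those with the lower. That split depended on the scale. The median log2 signal of an array, over the probe sets above the expression minimum alone, was 7.5 to 7.65 after CDDO-Im 30 and 7.63 to 7.8 after D3T. The median difference over all genes was -0.16. Centring every array on its own median over those probe sets added 0.19 to each Wt difference, and 1130 genes were then higher (11.7%) and 971 lower (10%), or 21.7% in all. The 4 mice of one treatment did not overlap the 4 of the other in 32.3% of genes (5.61% higher and 26.7% lower after CDDO-Im 30). All 431 higher and 971 of the 2536 lower genes held their call on both scales. Centring added to every Wt difference and so could only enlarge those of higher genes, whose holding is no separate support. The same shift favours higher over lower calls in all counts on the centred scale. In the following, a share is read against these percentages. A difference is always CDDO-Im 30 minus D3T in log2 units, counts on the centred scale follow in brackets, and signals are log2 values after GC-Robust Multi-array Average (GCRMA), of which 10% lay under 2.17 and none carried a detection call. Nrf2-null D3T mouse 4 stood apart from its group, and Nrf2-null results that rest on it are given with and without it. The fit shares its estimate of spread over all groups, so that mouse also enters the spread used for the Wt tests. Wt counts without that mouse alone are not given. With only the 5 Wt groups in the fit, which leaves out every Nrf2-null mouse, 554 genes were higher and 2914 lower in Wt liver. In bulk liver, fewer cells of a type and less RNA per cell cannot be told apart.

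**Figure D1:**
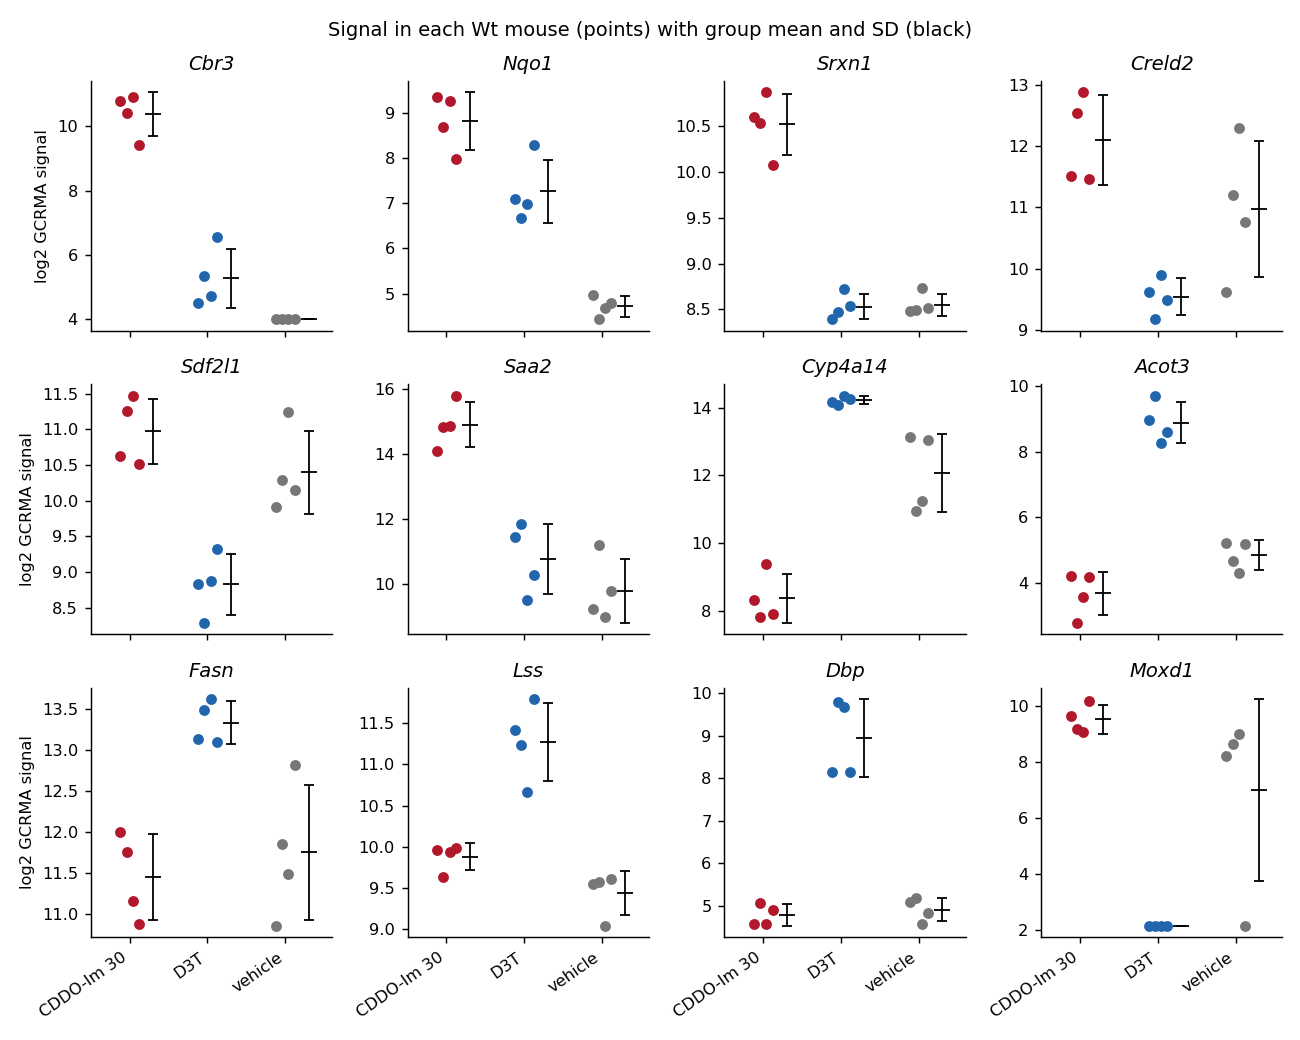
Log2 GCRMA signal of 12 genes in each Wt mouse (points; y axes differ between panels and do not start at 0) after CDDO-Im 30, D3T or vehicle, with the group mean and SD in black (n = 4 each). The CDDO-Im 30 and D3T points do not overlap in 11 of the 12 panels, and overlap for Nqo1.

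The branches of the Nrf2 program described above held more higher than lower calls after CDDO-Im 30. Of 36 measured genes of conjugation and reduction, 9 were higher and 6 lower (18 and 2 on the centred scale), with a median difference of 0.23. Of 16 genes of the glutathione and thioredoxin systems, 9 were higher and 2 lower (10 and 1 centred), and of 10 exporters of conjugates 4 were higher and none lower (5 and 0 centred). Lists beside these went otherwise. Of 10 genes of NADPH supply none were higher and 3 lower (1 and 2 centred), with a median of -0.21. Of 12 for Nrf2 and its partners none were higher and 1 lower (1 and 1 centred).

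Cbr3, a carbonyl reductase and a classic Nrf2 target, had signals of 10.79, 10.42, 10.91 and 9.41 after CDDO-Im 30, against 4.50, 5.35, 4.72 and 6.55 after D3T and 4.00 to 4.01 in the vehicle mice. The CDDO-Im 30 mice stood far above both other groups, and the D3T mice spread over more than those of vehicle. The difference of 5.11 (SE 0.41, adjusted p = 2.3e-10) was 34.4-fold. Against vehicle, Cbr3 was 6.38 higher after CDDO-Im 30 (adjusted p = 6.4e-13) and 1.27 higher after D3T (adjusted p = 0.069), differences that share the vehicle mice. The vehicle signals were low and almost without spread, so the size of both differences is uncertain. Over all genes 23.6% passed against vehicle after CDDO-Im 30 (2.81% higher and 20.8% lower) and 4.23% after D3T (2.64% higher and 1.59% lower).

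Nqo1, the quinone reductase by which Nrf2 activation is commonly gauged, had signals of 9.34, 8.68, 9.27 and 7.97 after CDDO-Im 30, against 7.10, 6.67, 6.99 and 8.28 after D3T and 4.43 to 4.98 in vehicle mice. D3T mouse 4 lay above the lowest CDDO-Im 30 mouse, so the groups overlapped, although both stood above vehicle. The mean difference was 1.55 (SE 0.32, adjusted p = 0.00044), or 2.93-fold. Over the CDDO-Im doses the mean rose with dose, at 4.72 with vehicle, 5.93 at 3 μmol/kg, 7.03 at 10 μmol/kg and 8.81 at 30 μmol/kg, and the D3T mean of 7.26 lay nearest to that of 10 μmol/kg.

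Glutathione S-transferases, which attach glutathione to electrophiles, went both ways. Gstm3 had signals of 14.26, 13.81, 14.12 and 13.23 after CDDO-Im 30 and 13.06, 13.50, 12.73 and 12.69 after D3T, against 10.10 to 10.72 in vehicle mice. The groups overlapped, and the difference of 0.86 did not pass (adjusted p = 0.056). Gstm1 (0.55, adjusted p = 0.055), Gsta2 (0.78, adjusted p = 0.089) and the carbonyl reductase Cbr1 (0.62, adjusted p = 0.055) also missed the threshold in the probe set of highest signal. All of these but Gsta2 passed it on the centred scale, all 4 passed with only the compared groups in the fit (adjusted p 0.0072 to 0.028), and the other 3 Gstm1 probe sets passed at 0.78 to 1.47. Each of these 4 was higher than vehicle under both treatments, by 1.76 to 3.42 after CDDO-Im 30 and 1.21 to 2.56 after D3T. Other transferases made up 5 of the 6 lower calls of the list: Gstm5 (-0.87, adjusted p = 0.00044) and Gstm6 (-0.81, adjusted p = 0.0089) passed on both scales. Gstt2 (-1.01, adjusted p = 0.017), Mgst3 (-0.69, adjusted p = 0.018) and Gstt1 (-0.46, adjusted p = 0.027) did not pass on the centred scale. Gstt2 was lost without D3T mouse 2 or CDDO-Im 30 mouse 4 (adjusted p 0.055 to 0.062), Mgst3 without D3T mouse 3 or CDDO-Im 30 mouse 2 or 4 (adjusted p 0.053 to 0.084), and Gstt1 without D3T mouse 1, 2 or 3 or CDDO-Im 30 mouse 3 or 4 (adjusted p 0.054 to 0.091).

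For each step of glucuronidation a named gene passed with little spread, while the other transferases of the list are not given here. Ugdh, which makes UDP-glucuronic acid, was 1.01 higher (SE 0.14, adjusted p = 7.6e-06). Ugt2b35, a glucuronosyltransferase, had signals of 14.29, 14.04, 14.29 and 14.19 after CDDO-Im 30, against 13.02, 13.05, 13.09 and 13.07 after D3T and 13.55 to 13.75 in vehicle mice. It lay above vehicle after CDDO-Im 30 and below it after D3T, with a difference of 1.15 between the treatments (SE 0.12, adjusted p = 1.3e-07).

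Srxn1, the sulfiredoxin that reactivates overoxidized peroxiredoxins, gave 10.60, 10.54, 10.87 and 10.08 after CDDO-Im 30, against 8.40, 8.47, 8.72 and 8.54 after D3T and 8.48 to 8.73 in vehicle mice. The D3T mice lay within or just under the vehicle range and all 4 CDDO-Im 30 mice above it, and the difference was 1.99 (SE 0.21, adjusted p = 1.6e-07). Txnrd1, the cytosolic thioredoxin reductase, was 0.62 higher (adjusted p = 2.2e-05), and Gss, glutathione synthetase, 1.42 higher (adjusted p = 0.001). Txnrd2, the mitochondrial thioredoxin reductase, was 0.95 lower (difference -0.95, adjusted p = 2.8e-05). By limma over probe sets, a second Gss probe set was at 0.709 and did not pass (adjusted p = 0.084). Of the other Txnrd2 probe sets, that at -0.78 passed (adjusted p = 0.0029). Those at -0.365 and -0.251 did not (adjusted p = 0.062 and 0.35). Osgin1, an oxidative stress-induced growth inhibitor, had a difference of 1.15 (adjusted p = 0.041), but its groups overlapped and the call was lost without D3T mouse 2, 3 or 4 or CDDO-Im 30 mouse 2, 3 or 4 (adjusted p 0.07 to 0.14).

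Among the exporters, Abcc4, which carries conjugates across the sinusoidal membrane into blood, had signals of 8.83, 7.99, 9.18 and 8.22 after CDDO-Im 30, against 6.38, 7.03, 7.20 and 6.72 after D3T and 5.46 to 6.06 in vehicle mice. The 3 groups formed steps without overlap, and the difference was 1.72 (SE 0.30, adjusted p = 7.8e-05). Abcc2, the canalicular exporter of conjugates, was 0.69 higher (adjusted p = 3.5e-05), Abcc1 0.92 higher (adjusted p = 0.0074) and Abcb1b, a P-glycoprotein, 1.16 higher (adjusted p = 0.015, but 0.065 without CDDO-Im 30 mouse 3). Abcb1b reached the expression minimum in the Wt CDDO-Im 30 group alone, so it could only enter as higher and is no support for the count of exporters. Over all genes 19 entered through that group alone, 13 of them called higher, and 8 through the Wt D3T group alone, 6 of them called lower. Outside these lists, Ces2b, a carboxylesterase, was among the genes of largest rise. Its signals were 6.89, 8.80, 7.04 and 6.63 after CDDO-Im 30, against 3.99, 4.39, 3.55 and 3.56 after D3T and 3.55 to 6.24 in vehicle mice. The difference was 3.47 (SE 0.50, adjusted p = 8.8e-06), and every CDDO-Im 30 mouse lay above the vehicle range. The lowest D3T signal, 3.55, recurred in Wt mice given vehicle or 3 or 10 μmol/kg CDDO-Im, so the size of the difference is uncertain.

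The core letters of the antioxidant response element, TGACNNNGC on either strand, stood in 14.0% of the RefSeq promoter windows of all 27025 genes and in 17.1% of the 7950 windows of tested genes (GRCm38.p6, from 250 bases before to 50 after the start). They stood in 5 of the 34 windows of the conjugation list (14.7%), 4 of 14 for glutathione and thioredoxin (28.6%) and 3 of 7 for the exporters (42.9%). Among genes called higher they stood in 1 of 9 (11.1%), 2 of 7 (28.6%) and 2 of 3 windows (66.7%). Among genes called lower they stood in 1 of 5 for conjugation, that of Gstm5, and 1 of 2 for glutathione and thioredoxin. Such a match is a description of letters, and most known elements of this kind lie outside so short a window.

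Among lists of 10 or more measured genes, the largest share of higher genes was that of the chaperones of the endoplasmic reticulum, which fold secreted proteins. Of 21 measured members 16 were higher after CDDO-Im 30 and none lower (18 and 0 centred), with a median difference of 0.69 against -0.16 over all genes. P4hb, a disulfide isomerase (0.07), and Sec61b, a subunit of the translocon (-0.07), were nearest to 0 and did not pass.

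Creld2, a folding factor induced by reticulum stress, had signals of 11.51, 12.55, 12.88 and 11.46 after CDDO-Im 30, against 9.62, 9.17, 9.89 and 9.49 after D3T. The vehicle mice spread widely and overlapped both, at 9.62, 11.20, 12.30 and 10.77. The difference was 2.56 (SE 0.54, adjusted p = 0.00057). Sdf2l1, a cochaperone of the same compartment, gave 10.63, 11.25, 11.47 and 10.52 after CDDO-Im 30, against 8.83, 8.29, 8.88 and 9.33 after D3T and 9.91 to 11.24 in vehicle mice, a difference of 2.14 (SE 0.44, adjusted p = 0.00046). Here the D3T mice were the ones apart: against vehicle, Sdf2l1 was 0.57 higher after CDDO-Im 30 (adjusted p = 0.36) and fell by 1.57 after D3T (adjusted p = 0.035).

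Hspa5, also called BiP, is the main Hsp70 of the reticulum and binds the sensors of unfolded protein. Its signals were 15.23, 15.41, 15.53 and 15.22 after CDDO-Im 30, against 14.41, 14.23, 14.71 and 14.70 after D3T and 14.59 to 15.51 in vehicle mice. The treated groups did not overlap each other and both overlapped vehicle. The difference was 0.84 (SE 0.22, adjusted p = 0.0042). Manf, a secreted factor held in the reticulum by calcium, was 1.34 higher (adjusted p = 0.0079), and Pdia3, a disulfide isomerase for glycoproteins, 0.99 higher (adjusted p = 4.5e-05).

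Several of these genes share a promoter element. The endoplasmic reticulum stress element, CCAAT and CCACG with 9 bases of any kind between them, searched on either strand, is the site at which NF-Y and ATF6 are known to meet. It stood in 37 of all 27025 promoter windows (0.137%) and in 15 of the 7950 windows of tested genes (0.189%). Among the chaperones it stood in 7 of 18 windows (38.9%), and all 7 belonged to the 13 chaperones with a window that were higher after CDDO-Im 30. These 7 were named for the match, after their values were seen. The stretches that hold it are printed 5′ to 3′ in the direction of transcription with 25 bases on each side, with the element in capitals, from RefSeq on GRCm38.p6, to show that its outer letters and spacing recur while the bases between them differ. Where the element lies on the other strand it reads CGTGG, 9 bases and ATTGG.
Hspa5 (chr2:34772000-34772068, plus strand): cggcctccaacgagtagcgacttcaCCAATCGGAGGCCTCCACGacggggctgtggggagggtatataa
Hsp90b1 (chr10:86705508-86705681, minus strand, 2 matches): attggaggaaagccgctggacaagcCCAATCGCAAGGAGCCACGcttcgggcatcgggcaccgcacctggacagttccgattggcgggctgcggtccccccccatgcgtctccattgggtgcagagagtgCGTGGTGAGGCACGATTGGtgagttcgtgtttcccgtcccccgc
Calr (chr8:84847050-84847118, minus strand): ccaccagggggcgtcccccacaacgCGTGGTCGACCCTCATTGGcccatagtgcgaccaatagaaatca
Canx (chr11:50325775-50325843, minus strand): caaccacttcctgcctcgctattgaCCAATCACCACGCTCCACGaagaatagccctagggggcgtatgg
Pdia6 (chr12:17266466-17266534, plus strand): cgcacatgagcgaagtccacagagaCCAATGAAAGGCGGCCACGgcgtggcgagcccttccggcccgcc
Dnajc3 (chr14:118937802-118937870, plus strand): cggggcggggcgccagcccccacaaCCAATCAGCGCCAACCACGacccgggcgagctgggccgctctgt
Creld2 (chr15:88819495-88819563, plus strand): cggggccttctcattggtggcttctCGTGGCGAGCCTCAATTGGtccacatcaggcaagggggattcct

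The first base of the element lay 65 bases before the annotated start in Hspa5, 98 in Pdia6, 105 in Dnajc3, 126 in Creld2, 145 in Canx, 162 in Calr and 212 in Hsp90b1. Beside Hspa5 and Creld2, the other carriers differed less. Hsp90b1, the reticulum Hsp90, was 0.62 higher (adjusted p = 0.0018), Dnajc3, a BiP cochaperone, 0.77 higher (adjusted p = 0.0013), and Pdia6, a disulfide isomerase, 0.76 higher (adjusted p = 0.0033). The lectin chaperones Calr and Canx were 0.53 higher (adjusted p = 0.0096, but 0.061 without D3T mouse 2) and 0.30 higher (adjusted p = 0.0067). Of 20 measured chaperones of the cytosol, 3 were higher and none lower (4 and 0 centred), Hspa8 by 0.75 (adjusted p = 0.0033), Hsp90aa1 by 0.65 (adjusted p = 0.037) and Cct2, a chaperonin subunit, by 0.18 (adjusted p = 0.037). The call of Hsp90aa1 was lost without D3T mouse 1, 2 or 3 or CDDO-Im 30 mouse 2 or 3 (adjusted p 0.078 to 0.13). That of Cct2 was lost without D3T mouse 1 or 2 or CDDO-Im 30 mouse 2, 3 or 4 (adjusted p 0.067 to 0.11). By limma over probe sets, the other Hsp90aa1 probe sets passed at 1.156 (adjusted p = 0.0022) and 1.462 (adjusted p = 0.0012). The other Cct2 probe sets were at 0.463 (adjusted p = 0.0014) and 0.105 (adjusted p = 0.39). Those of Hspa8 were at 0.739 (adjusted p = 0.023), 0.491 (adjusted p = 0.11) and -1.25, which did not pass.

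**Figure D2:**
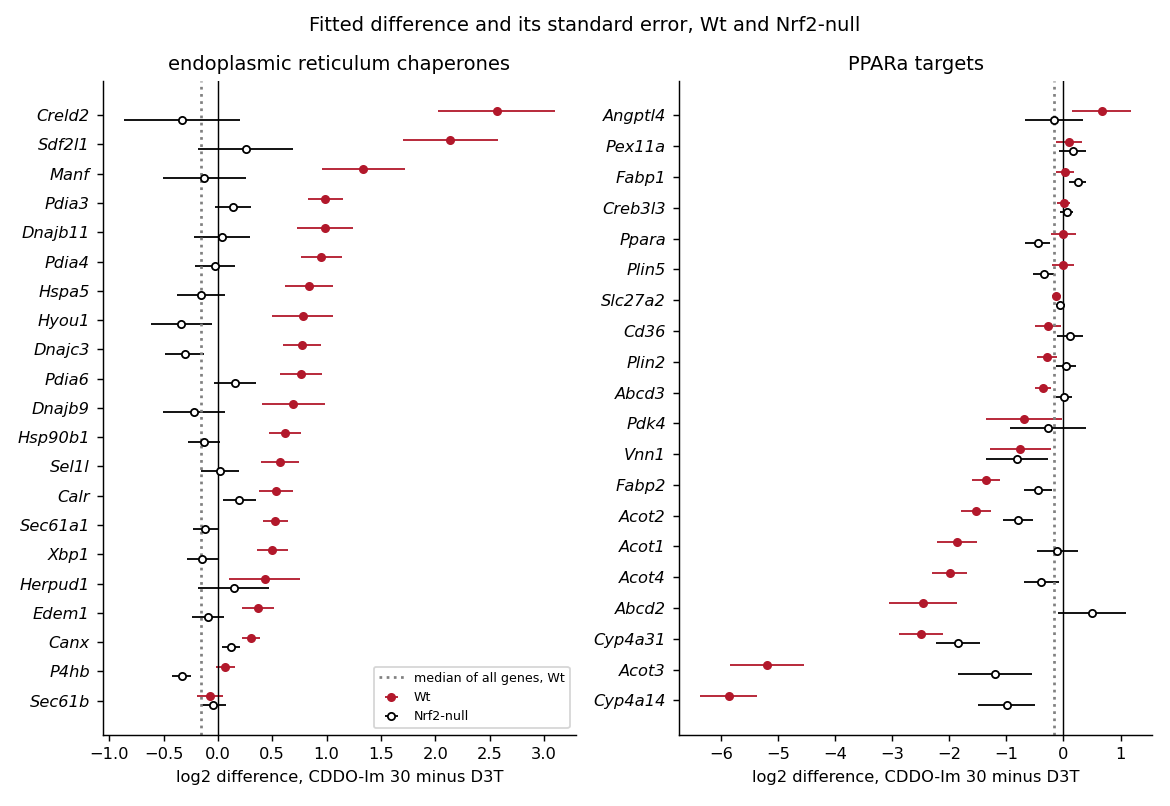
Fitted log2 difference, CDDO-Im 30 minus D3T, with its standard error, for chaperones of the endoplasmic reticulum (left) and PPARα targets (right), in Wt (filled) and Nrf2-null (open) liver. The dotted line is the median of all genes in Wt, -0.16. The Wt points lie right of 0 for 20 of the 21 chaperones, and the 9 PPARα targets that passed all lie left of it.

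The PPARα program ran the other way. PPARα is the nuclear receptor that switches on fatty acid oxidation when fatty acids are abundant. Of 20 measured targets, none were higher and 9 lower after CDDO-Im 30 (0 and 8 centred), with a median difference of -0.53. Ppara itself had a difference of -0.01 with overlapping groups in its probe set of highest signal, and both others were at -0.57 (limma over probe sets, adjusted p = 0.047 and 0.078).

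Cyp4a14, a fatty acid ω-hydroxylase and one of the most responsive PPARα targets in rodents, had signals of 8.32, 7.82, 9.38 and 7.90 after CDDO-Im 30, against 14.17, 14.08, 14.36 and 14.25 after D3T. Vehicle mice lay between the 2 groups at 13.13, 10.94, 11.23 and 13.04. The difference was -5.86 (SE 0.50, adjusted p = 1.3e-09), a 58.1-fold lower signal. Against vehicle, Cyp4a14 was 3.73 lower after CDDO-Im 30 (difference -3.73, adjusted p = 7e-06) and 2.13 higher after D3T (adjusted p = 0.013). Its means at the lower CDDO-Im doses followed no order of dose, being 10.57 at 3 μmol/kg and 13.59 at 10 μmol/kg.

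Acot3, a peroxisomal acyl-CoA thioesterase, gave 4.20, 2.79, 3.58 and 4.19 after CDDO-Im 30, against 8.96, 9.70, 8.25 and 8.61 after D3T and 4.29 to 5.23 in vehicle mice. All CDDO-Im 30 mice lay just below vehicle and all D3T mice far above it, and the difference was -5.19 (SE 0.65, adjusted p = 2e-06). Cyp4a31, a second ω-hydroxylase, had a difference of -2.49 (adjusted p = 1.9e-05). Abcd2, which imports very long chain acyl-CoA into peroxisomes, had signals of 6.15, 4.47, 6.45 and 5.20 after CDDO-Im 30, against 7.72, 8.43, 7.92 and 8.04 after D3T and 3.32 to 6.09 in vehicle mice. CDDO-Im 30 and vehicle overlapped and D3T stood above both, with a difference of -2.46 (SE 0.60, adjusted p = 0.0023). No promoter window of the 15 PPARα targets that had one held AGGTCA repeated after 1 base of any kind, on either strand, which 0.0481% of all windows hold.

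Of 25 genes of fatty acid oxidation, 12 were lower and 1 higher (6 and 1 centred), with a median of -0.30, or -0.11 centred. Ehhadh, the peroxisomal bifunctional enzyme, had a difference of -0.90 (adjusted p = 0.008) and Acsl5, an acyl-CoA synthetase, one of -0.82 (adjusted p = 0.002). Decr1 and Eci2, auxiliary enzymes for unsaturated fatty acids, had differences of -0.70 (adjusted p = 0.00025) and -0.65 (adjusted p = 0.001). Of 15 regulators of lipid metabolism only Ppargc1a passed, on both scales. It encodes the coactivator PGC-1α, and its signals were 6.61, 7.02, 6.91 and 5.31 after CDDO-Im 30, against 8.17, 8.53, 8.10 and 7.60 after D3T and 6.17 to 7.50 in vehicle mice. The difference was -1.64 (SE 0.31, adjusted p = 0.00017). Ppargc1b (-0.41), Lpin1 (-0.35) and Klf13 (-0.12) did not pass and their groups overlapped.

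The fatty acid synthesis list held 23 measured genes, and 10 of them passed as lower after CDDO-Im 30 than after D3T and none as higher (8 and 0 centred). Of the 23, 22 differences lay below 0, with a median of -0.71. Fasn, fatty acid synthase, gave 12.00, 11.75, 11.16 and 10.87 after CDDO-Im 30, against 13.13, 13.49, 13.62 and 13.09 after D3T. The vehicle mice spread from 10.85 to 12.82 and overlapped the CDDO-Im 30 mice but not the D3T mice. The difference was -1.89 (SE 0.47, adjusted p = 0.0031). Elovl6, which lengthens palmitate, gave 10.81, 10.96, 10.56 and 10.22 after CDDO-Im 30, against 12.77, 12.87, 12.46 and 12.00 after D3T and 9.96 to 11.21 in vehicle mice, a difference of -1.89 (SE 0.36, adjusted p = 0.00024).

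Acaca, the acetyl-CoA carboxylase that commits carbon to fatty acids, gave 8.50, 8.55, 8.09 and 7.58 after CDDO-Im 30, against 9.84, 9.73, 9.77 and 9.06 after D3T and 7.90 to 8.62 in vehicle mice. For this gene too CDDO-Im 30 was within or near the vehicle range and D3T above it. The difference was -1.42 (SE 0.22, adjusted p = 2.5e-05), while a second, dimmer Acaca probe set had a difference of -0.30 and did not pass. Acly, which supplies acetyl-CoA from citrate, had a difference of -1.31 (adjusted p = 0.011), and Acacb, the carboxylase whose product restrains fatty acid oxidation, one of -1.10 (adjusted p = 0.079), with overlapping groups. Acacb passed with fewer groups in the fit (adjusted p = 0.018 with the compared groups alone and 0.0065 with the Wt groups).

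Srebf1, which encodes the SREBP-1 factors that drive these genes, had signals of 11.90, 11.36, 10.82 and 11 after CDDO-Im 30, against 12.27, 13.11, 13.10 and 12.57 after D3T and 11.85 to 13.07 in vehicle mice. Only here among the lipogenic genes printed per mouse did the vehicle mice lie nearer to D3T, and the difference was -1.49 (SE 0.29, adjusted p = 0.0003). Srebf2, the factor of sterol synthesis, had a difference of -0.09 in its probe set of highest signal, which did not pass, and one of -0.96 in another (limma over probe sets, adjusted p = 0.00023). In the probe set of highest signal the value 6.12 recurred in every group, so its flat reading cannot decide whether Srebf2 differed. Of 13 sterol regulators and their targets, 4 were lower and none higher (3 and 1 centred): besides Srebf1 these were Stard4, a sterol carrier (-1.07, adjusted p = 0.0015), Scap, the escort of SREBP (-0.78, adjusted p = 0.00033), and Nr1h3, the oxysterol receptor LXRα (-0.50, adjusted p = 0.033). The Nr1h3 groups overlapped, and its call was lost without D3T mouse 1 or 2 or CDDO-Im 30 mouse 2 or 3 (adjusted p 0.063 to 0.13) and on the centred scale (adjusted p = 0.17).

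Cholesterol synthesis was uniformly on the lower side. All 18 measured enzymes had a difference below 0, 10 of them passed and none were higher (4 lower and 0 higher centred), and the median was -0.86, the lowest of the pathway lists with 10 or more measured genes. Lss, lanosterol synthase, which closes the sterol rings, gave 9.96, 9.63, 9.94 and 9.98 after CDDO-Im 30, against 11.41, 11.23, 10.66 and 11.79 after D3T and 9.04 to 9.61 in vehicle mice. The D3T mice were the high ones, and the difference was -1.40 (SE 0.36, adjusted p = 0.0037). Against vehicle, Lss differed by 0.43 after CDDO-Im 30 (adjusted p = 0.41) and by 1.83 after D3T (adjusted p = 0.0027). Pmvk, phosphomevalonate kinase (-1.26, adjusted p = 0.0072), and Fdft1, squalene synthase (-1.21, adjusted p = 0.0039), passed as well. Dhcr7, of the last step to cholesterol, had a difference of -0.99 (adjusted p = 0.026), which was lost without D3T mouse 1 or 4 or CDDO-Im 30 mouse 2 or 3 (adjusted p 0.057 to 0.079) and on the centred scale (adjusted p = 0.09). Cyp51, the lanosterol demethylase, had a difference of -0.68, which did not pass in the fit of all groups. It did pass with the compared groups alone (adjusted p = 0.0077) and with the Wt groups (adjusted p = 0.0017). The SD of Cyp51 was 1.47 in the Nrf2-null D3T group, where mouse 4 gave 9.33. In Wt liver it was 0.24 after CDDO-Im 30 and 0.28 after D3T. The part of that mouse in the missed call was not tested. The letters TCACNCCAC of the sterol regulatory element, on either strand, stood in 1 of 15 promoter windows of this list (6.67%), against 1.47% of tested genes. They stood in 0 of the 8 windows of its genes called lower.

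**Figure D3:**
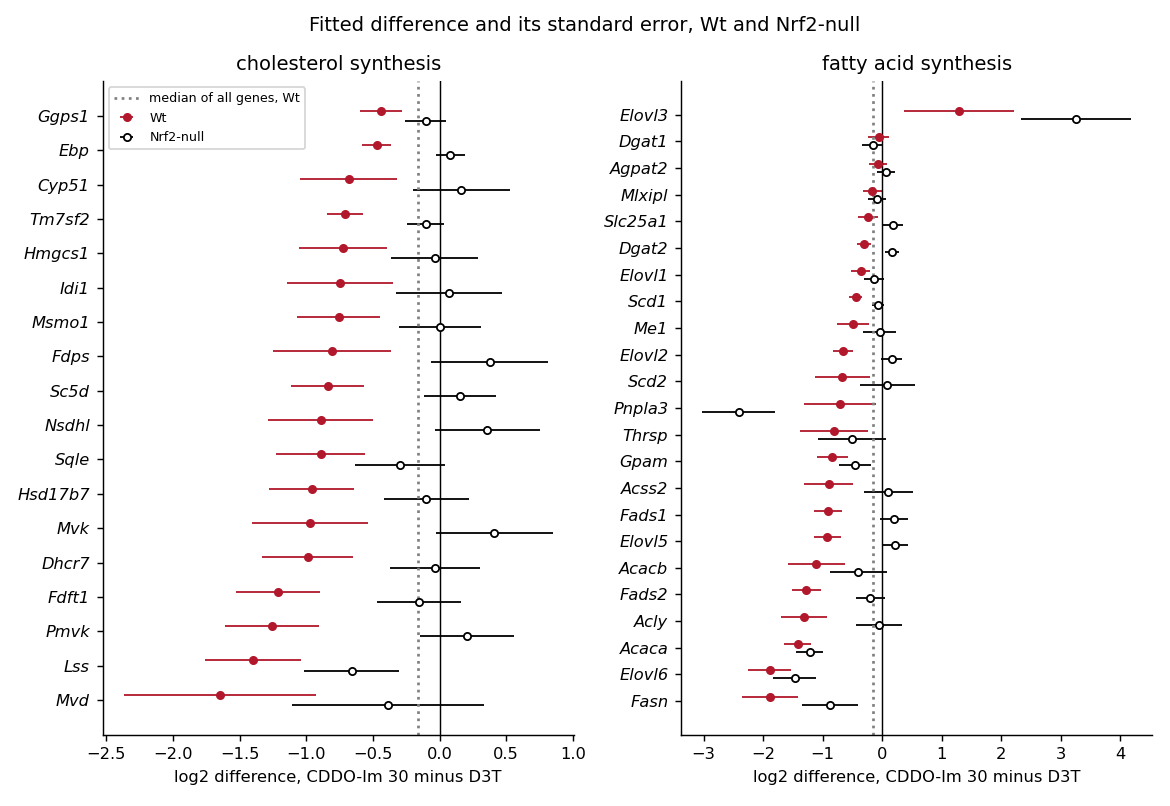
Fitted log2 difference, CDDO-Im 30 minus D3T, with its standard error, for genes of cholesterol synthesis (left) and fatty acid synthesis (right), in Wt (filled) and Nrf2-null (open) liver; the dotted line is the median of all genes in Wt, -0.16. All 18 Wt points on the left and 22 of 23 on the right lie below 0.

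Acute phase proteins of the serum amyloid family were higher after CDDO-Im 30. Of 23 acute phase genes 5 were higher and none lower (7 and 0 centred), with a median of 0.26. Saa2, an apolipoprotein of inflammation made by hepatocytes, gave 14.09, 14.83, 14.87 and 15.79 after CDDO-Im 30, against 11.44, 11.82, 9.49 and 10.27 after D3T and 8.98 to 11.18 in vehicle mice. The D3T mice were scattered and overlapped vehicle, and no D3T mouse reached the CDDO-Im 30 mice. The difference was 4.14 (SE 1.22, adjusted p = 0.011). Saa3, made largely outside hepatocytes, was 2.56 higher (SE 0.50, adjusted p = 0.00028) and Saa1 2.64 higher (SE 0.97, adjusted p = 0.037). The call of Saa1 was lost without D3T mouse 1, 3 or 4 or CDDO-Im 30 mouse 2, 3 or 4 (adjusted p 0.051 to 0.11), and that of Saa4 (0.55, adjusted p = 0.039) without any of the 8 mice but CDDO-Im 30 mouse 3 (adjusted p 0.05 to 0.13).

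Not every acute phase gene separated. Lcn2, a siderophore-binding lipocalin, gave 10.38, 11.86, 12.09 and 12.13 after CDDO-Im 30 and 11.09, 12.09, 7.72 and 9.71 after D3T, against 5.96 to 6.74 in vehicle mice. Both treated groups stood above vehicle and overlapped each other, with a difference of 1.46 (SE 1.35, adjusted p = 0.44). Orm2, an orosomucoid, likewise overlapped (2.02, adjusted p = 0.12).

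S100a8 and S100a9, which neutrophils carry in quantity, were the only neutrophil markers measured of 8, and both were higher. S100a8 gave 8.08, 9.23, 8.78 and 8.09 after CDDO-Im 30, against 6.46, 6.30, 4.86 and 4.65 after D3T and 4.63 to 6.43 in vehicle mice. The difference was 2.98 (SE 0.76, adjusted p = 0.0036), and that of S100a9 was 2.49 (adjusted p = 0.0084). The summed log2 level of the pair was 8.34 to 9.68 after CDDO-Im 30 and 5.34 to 6.9 after D3T, against 5.01 to 6.93 in vehicle mice, without overlap between the treatments. Cxcl1, a chemokine that draws neutrophils, was 2.48 higher (adjusted p = 0.027), a call lost without D3T mouse 1 or 4 or CDDO-Im 30 mouse 2, 3 or 4 (adjusted p 0.051 to 0.065). The part of these marker levels in the rise of the acute phase genes was not tested.

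Of 13 Kupffer cell and macrophage markers, 1 was higher and 1 lower (1 and 1 centred). Marco, a scavenger receptor, gave 5.55, 5.53, 6.75 and 6.24 after CDDO-Im 30, against 3.04, 4.19, 4.06 and 3.09 after D3T and 2.27 to 3.25 in vehicle mice, a difference of 2.42 (SE 0.54, adjusted p = 0.0012). Cd68, a lysosomal glycoprotein, gave 4.65, 4.62, 4.65 and 4.74 after CDDO-Im 30, against 6.21, 5.75, 5.88 and 5.36 after D3T and 4.62 to 5.42 in vehicle mice, a difference of -1.14 (SE 0.28, adjusted p = 0.0028). The summed level of all 13 overlapped, at 13.98 to 14.33 after CDDO-Im 30 and 13.59 to 14.08 after D3T, against 13.64 to 14.38 in vehicle mice. Of 10 hepatocyte markers 2 were lower and none higher (0 and 0 centred), their summed level was 18.69 to 18.74 after CDDO-Im 30 and 18.79 to 18.86 after D3T, and Alb, albumin, differed by -0.10 without passing. Of 9 endothelial markers 3 were lower and none higher (1 and 1 centred). None of the 8 stellate cell markers passed, nor did the 2 measured markers each of bile duct, lymphocytes, red blood cells and exocrine pancreas or the 1 adipocyte marker, while on the centred scale 1 bile duct and 1 red blood cell marker were higher.

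Complement and coagulation factors, further secreted products of the hepatocyte, were higher in 11 of 30 genes and lower in 2 (16 and 0 centred), by small steps about a median of 0.06. C2, a complement protease, gave 10.97, 11.35, 11.16 and 11.06 after CDDO-Im 30, against 10.46, 10.51, 10.37 and 10.18 after D3T and 11.12 to 11.18 in vehicle mice, a difference of 0.76 (SE 0.13, adjusted p = 5e-05). CDDO-Im 30 matched vehicle in mean to within 0.02 and the D3T mice were the low ones. C6, of the membrane attack complex, was 1.11 higher (adjusted p = 0.01, but 0.051 without D3T mouse 2) and coagulation factor F11 0.67 higher (adjusted p = 0.0082). C8b, also of that complex, was 0.54 higher (adjusted p = 0.016, but 0.05 to 0.054 without D3T mouse 4 or CDDO-Im 30 mouse 4).

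Of 18 apolipoproteins and partners in lipoprotein handling, 9 were lower and none higher, and on the centred scale 3 were lower and 2 higher. Pltp, which moves phospholipids between lipoproteins, gave 10.62, 10.38, 10.60 and 10.28 after CDDO-Im 30, against 12.80, 12.39, 12.26 and 11.53 after D3T and 9.90 to 11.08 in vehicle mice, a difference of -1.78 (SE 0.29, adjusted p = 3.8e-05). Apoa4 (-1.70, adjusted p = 0.0016) and Apoc2 (-0.68, adjusted p = 0.0011) passed on both scales. Apoc4 (-0.23, adjusted p = 0.00031) was at -0.05 once the arrays were centred and no longer passed. Vldlr, the receptor for triglyceride-rich particles, gave 4.90, 3.94, 5.33 and 3.79 after CDDO-Im 30, against 7.05, 7.40, 6.61 and 6.90 after D3T and 4.28 to 6.96 in vehicle mice. Its difference was -2.50 (SE 0.44, adjusted p = 8.5e-05).

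Among 17 genes of phospholipid and choline metabolism, 8 were lower and 1 higher (5 and 3 centred). Mfsd2a, a carrier of lysophosphatidylcholine, had a difference of -2.47 (adjusted p = 0.016), which was lost without D3T mouse 2 or CDDO-Im 30 mouse 3 or 4 (adjusted p 0.051 to 0.061). Ptdss2, phosphatidylserine synthase (-0.78, adjusted p = 0.00023, while its other 3 probe sets, at -0.43 to -0.29, did not pass), and Pemt, which methylates phosphatidylethanolamine (-0.65, adjusted p = 0.00012), were lower. Gpat4, a glycerol phosphate acyltransferase, was 0.62 higher (adjusted p = 0.015, but 0.054 without D3T mouse 1 or 4 or CDDO-Im 30 mouse 1). Of 17 bile acid genes 5 were lower and 1 higher (3 and 3 centred). Cyp7b1, of the alternative pathway of bile acid synthesis, was 1.61 higher (adjusted p = 0.014). Klb, the coreceptor for FGF15, had a difference of -1.21 (adjusted p = 0.00012) and Nr1h4, the bile acid receptor FXR, one of -0.81 (adjusted p = 0.00016). Slco1a4, an uptake transporter, had a difference of -1.42 (adjusted p = 0.018), with overlapping groups and a call lost without CDDO-Im 30 mouse 2 or 3 (adjusted p 0.05 to 0.099).

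Subunits of the respiratory chain illustrated the weight of the scale: 19 of 29 were lower and none higher on the deposited scale, with a median difference of -0.20, and 1 was lower and 2 higher on the centred scale. The remaining lists held few calls. Of 32 proteasome subunits 7 were lower and none higher (1 lower and 5 higher centred), and of 24 RNA-binding and splicing genes 8 were lower (3 lower and 1 higher centred). Counts of higher and lower genes, with the centred counts in brackets, were 3 and 2 of 13 for iron and heme (5 and 1), 0 and 3 of 10 for NADPH supply (1 and 2), 0 and 1 of 12 for Nrf2 and its partners (1 and 1), and 0 and 4 of 21 for glucose metabolism (0 and 1). They were 1 and 2 of 23 for cytochromes P450 and their receptors (3 and 1), 1 and 2 of 14 for the glucocorticoid response (1 and 0), and 1 and 1 of 11 for stress kinase and immediate early genes (1 and 1). They were 1 and 2 of 13 for the integrated stress response (1 and 1), and 1 and 2 of 21 for interferon response and antigen presentation (2 and 1). They were 0 and 1 of 19 for the urea cycle and amino acids (3 and 0), 1 and 1 of 18 for growth hormone and sex-biased genes (3 and 0), and 1 and 3 of 14 for fetal and proliferation genes (1 and 2).

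**Figure D4:**
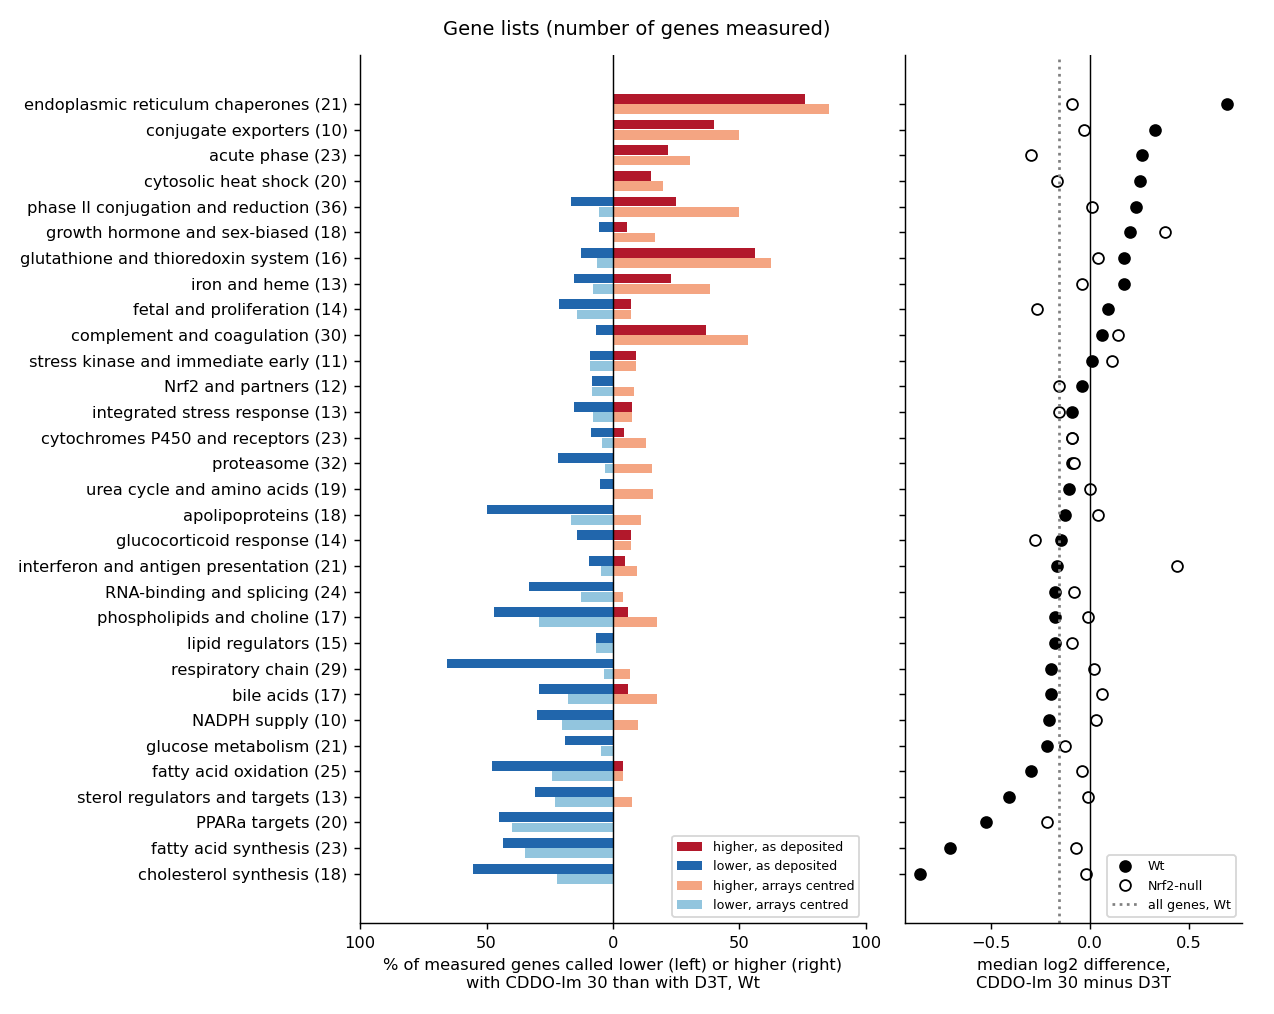
Left, percentage of the measured genes of each list (number in brackets; lists with 10 or more) that were lower (bars to the left) or higher (bars to the right) after CDDO-Im 30 than after D3T in Wt liver, on the deposited scale (dark) and with arrays centred (pale). Right, the median log2 difference of each list in Wt (filled) and Nrf2-null (open) liver, with the Wt median of all genes dotted at -0.16. Lists are ordered by their Wt median and not by share. Chaperones of the endoplasmic reticulum top the plot (16 of 21 higher) and cholesterol synthesis ends it (10 of 18 lower).

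Clock genes differed between the treated groups in part. Of 9 measured evening genes 3 were lower and none higher (1 and 0 centred), against 26.2% of all genes lower (10% centred), and none of 5 morning genes passed. A score per mouse, the mean log2 signal of 9 evening genes minus that of 5 morning genes, was -2.38, -2.41, -2.63 and -2.39 after CDDO-Im 30, against -1.74, -0.01, 0.14 and -0.24 after D3T. It averaged -2.45 ± 0.12 after CDDO-Im 30 and -0.46 ± 0.86 after D3T, against -2.87 ± 0.13 with vehicle (SD, n = 4 each), so that the D3T mice were apart from both other groups. The difference of -1.99 had an exact two-sided permutation p = 0.029, the smallest that 4 mice against 4 allow. The score also varied within a group given no compound, at 2.92, -3.4, -2.77 and -3.55 in Nrf2-null vehicle mice. Dbp, a clock output factor, gave 4.57, 5.07, 4.56 and 4.91 after CDDO-Im 30, against 8.15, 9.81, 9.69 and 8.15 after D3T and 4.56 to 5.18 in vehicle mice, a difference of -4.17 (SE 1.24, adjusted p = 0.011). Mean Dbp was 11.74 at 10 μmol/kg CDDO-Im and 4.71 at 3 μmol/kg.

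The clock repressor Per3 (-2.24, adjusted p = 0.039) and the output factor Tef (-1.20, adjusted p = 0.037) also passed with all mice, but both calls were lost without any of the 8 mice but D3T mouse 1 (adjusted p 0.06 to 0.11 for Per3 and 0.05 to 0.11 for Tef) and on the centred scale (adjusted p = 0.074 and 0.095). No morning gene passed, Arntl, which encodes BMAL1, being at 0.62. With the score as a covariate 2605 genes still differed, 367 higher and 2238 lower, while the calls of Mfsd2a, Nr1h3, Per3, Tff3, Upp2, Slco1a4, Osgin1, Hsp90aa1, C8b and Gstt2 were lost (adjusted p 0.053 to 0.24). Their differences shrank unequally: Nr1h3 was at -0.49 with the covariate, C8b at 0.47, Tff3 at 3.07, Gstt2 at -0.69, Mfsd2a at -1.81 and Slco1a4 at -1.10, against -0.70 for Upp2, 0.52 for Osgin1, 0.39 for Hsp90aa1 and -0.60 for Per3. Per3 is itself among the evening genes of the score, so its shrinkage was built in and is no separate result. The labels and methods give no hour of killing for the groups, and the part of the clock in the lipid genes was not tested beyond that covariate.

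**Figure D5:**
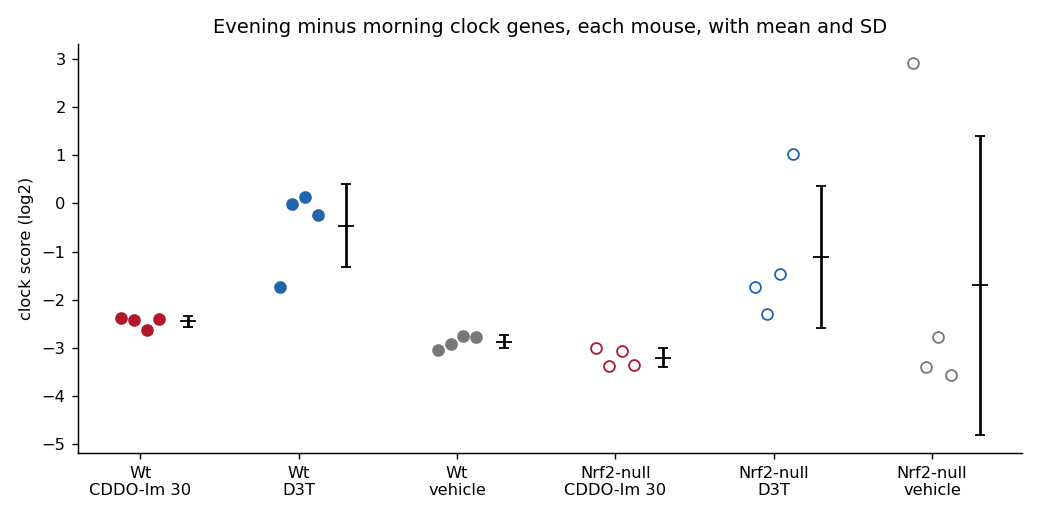
Clock score (log2, mean of evening genes minus mean of morning genes) of each mouse in Wt (filled) and Nrf2-null (open) liver after CDDO-Im 30, D3T or vehicle, with the mean and SD (n = 4). The 4 Wt CDDO-Im 30 mice sit between -2.63 and -2.38 and the 4 Wt D3T mice between -1.74 and 0.14.

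Moxd1 is a monooxygenase resembling dopamine β-hydroxylase, and the size of its difference is not set by these data. It gave 9.67, 9.18, 9.08 and 10.19 after CDDO-Im 30, against 2.15 to 2.16 after D3T, and 8.24, 8.64, 9.01 and 2.15 in the vehicle mice. The difference passed (adjusted p = 6.4e-06), but the D3T values lay among the lowest 10% of the table, so no size or fold is given. One vehicle mouse shared that low value, as did the mean of the 10 μmol/kg CDDO-Im group (2.15) and all mice of both Nrf2-null groups, so the gene was high in some mice of a group and at the bottom in others. Tff3, a mucosal trefoil peptide, was 3.85 higher (adjusted p = 0.024, but 0.052 to 0.062 without CDDO-Im 30 mouse 1 or 3), and Scara5, a ferritin receptor, 3.16 higher (SE 0.83, adjusted p = 0.0046).

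Among the largest falls, Agbl5, a tubulin deglutamylase, had the least spread. It gave 5.77, 5.54, 5.61 and 5.73 after CDDO-Im 30, against 8.13, 7.89, 8.0 and 7.49 after D3T and 6.18 to 7.23 in vehicle mice. The groups lay on either side of vehicle, and the difference was -2.21 (SE 0.18, adjusted p = 2.3e-10), while its second, dimmer probe set was at -0.30 and did not pass. Nipal1, a magnesium transporter (-3.23, adjusted p = 0.011), and the cytochrome Cyp2c38 (-2.01, adjusted p = 2e-05) were lower. Serpinb1a, an inhibitor of neutrophil proteases (-2.0, adjusted p = 0.021), was lost without D3T mouse 2 or 3 or CDDO-Im 30 mouse 1 or 4 (adjusted p 0.052 to 0.069). Tcf24 (-2.45, adjusted p = 0.028) was lost without D3T mouse 2 or 3 or CDDO-Im 30 mouse 2, 3 or 4 (adjusted p 0.056 to 0.072) and on the centred scale. Of 30 measured genes that the study names, 2 were higher (Nqo1 and Abcc4) and 6 lower (6 and 6 centred). Beside Lss, Acaca, Fasn and Srebf1 the lower ones were Sult1c2, a sulfotransferase (-1.49, adjusted p = 0.0026), and Upp2, a uridine phosphorylase (-1.17, adjusted p = 0.01). The study chose those genes on these samples, so their counts are not independent evidence of a direction.

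In Nrf2-null liver the same pair of treatments differed in 280 genes (2.89%), 171 higher (1.76%) and 109 lower (1.12%) after CDDO-Im 30, and on the centred scale in 3.14% (2.01% higher and 1.12% lower). The Nrf2-null D3T group, which holds the mouse that stood apart, had a lowest pairwise correlation of 0.9622, against 0.9907 in the Wt D3T group. Without that mouse 227 genes differed, 93 higher and 134 lower. The count also fell to 153 without Nrf2-null D3T mouse 3, and to 171, 125 and 116 without Nrf2-null CDDO-Im 30 mouse 1, 2 or 4. The Wt and Nrf2-null comparisons shared 20 higher genes (4.64% of the Wt list and 11.7% of the Nrf2-null list) and 40 lower genes (1.58% and 36.7%), while 21 were called in opposite directions. Without that mouse they shared 12 higher (2.78% and 12.9%) and 63 lower genes (2.48% and 47%).

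Of the Nrf2 program in Nrf2-null liver, 3 of 36 genes of conjugation and reduction were higher and 2 lower, 1 of 16 for glutathione and thioredoxin was higher, and no exporter passed. Without D3T mouse 4, 3 of the 36 were higher and 1 lower. Cbr3 gave 4.01, 4.02, 4.00 and 4.21 after CDDO-Im 30 and 4.01, 3.50, 4.00 and 4.01 after D3T in Nrf2-null mice, a difference of 0.18 (adjusted p = 0.88). Most of these signals sat at the low value of the Wt vehicle mice, so the size of its genotype difference is uncertain. The genotype difference, Wt minus Nrf2-null, passed for 1535 of all genes (15.8%), 249 higher (2.57%) and 1286 lower (13.3%). On the centred scale it passed for 10.6%, 564 higher (5.82%) and 462 lower (4.77%), and without Nrf2-null D3T mouse 4 for 225 higher and 1197 lower. Among genes named above it passed for Cbr3 (4.93, adjusted p = 3.1e-06), Nqo1 (1.94, adjusted p = 0.0044), Srxn1 (2.11, adjusted p = 7.4e-05), Abcc4 (1.37, adjusted p = 0.027), Abcc2 (1.02) and Ugt2b35 (1.20), all of which passed without that mouse as well.

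Chaperones of the reticulum also separated by genotype. In Nrf2-null liver none of the 21 were higher and 1 lower, with a median of -0.09, and none passed in either direction without D3T mouse 4 (median -0.02). The genotype difference passed for 11 of 21 (15 centred), always with the more positive difference in Wt, and for 6 without that mouse. Creld2 gave 10.21, 9.26, 10.30 and 10.79 after CDDO-Im 30 and 9.46, 11.39, 10.08 and 10.94 after D3T in Nrf2-null mice, with full overlap. Its genotype difference was 2.89 (adjusted p = 0.01), or 2.73 (adjusted p = 0.022) without that mouse. For Sdf2l1 it was 1.88 (adjusted p = 0.035) with and 1.67 (adjusted p = 0.075) without it, and for Hspa5 0.99 (adjusted p = 0.028) and 0.93 (adjusted p = 0.051).

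The lower signal of PPARα targets differed between genotypes for 5 of 20 genes, with and without that mouse, among them Cyp4a14 (-4.87, adjusted p = 0.0001), Acot3 (-3.99, adjusted p = 0.0044) and Abcd2 (-2.97, adjusted p = 0.017). Cyp4a31 was lower in both genotypes: in Nrf2-null mice it gave 6.25, 7.38, 7.45 and 6.88 after CDDO-Im 30, against 9.35, 8.30, 8.94 and 8.76 after D3T, a difference of -1.85 (adjusted p = 0.0059), and the genotype difference of -0.64 did not pass.

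Lipid synthesis showed how far 1 mouse carried a result. Elovl6 in Nrf2-null mice gave 10.78, 10.69, 10.68 and 10.56 after CDDO-Im 30, against 12.91, 12.12, 13.09 and 10.45 after D3T. D3T mice 1, 2 and 3 were high as in Wt, and D3T mouse 4 was below all CDDO-Im 30 mice. The difference was -1.47 (adjusted p = 0.022) with all mice and -2.03 (adjusted p = 0.00013) without it. Fasn had a difference of -0.87 (adjusted p = 0.35) with and -1.67 (adjusted p = 0.0088) without that mouse, and Lss one of -0.66 (adjusted p = 0.35) with and -1.29 (adjusted p = 0.0044) without it. In fatty acid synthesis, with 23 genes, Nrf2-null liver had 3 lower and 1 higher with it, and 7 lower and none higher without it. Of the 18 genes of cholesterol synthesis none were called with it and 5 were lower without it (median -0.56). The genotype difference of cholesterol synthesis passed for 3 of 18 genes, for 2 without that mouse and for none on the centred scale, and that of fatty acid synthesis for 4 of 23, or 1 on the centred scale.

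The same mouse had the highest Saa2, Lcn2 and Orm2 signals of the Nrf2-null D3T group. Saa2 gave 8.38, 8.99, 8.23 and 8.93 after CDDO-Im 30, against 9.56, 9.67, 8.90 and 14.14 after D3T in Nrf2-null mice, so that only D3T mouse 4 reached the Wt CDDO-Im 30 level. Lcn2 gave 4.89, 5.64, 4.81 and 5.01 after CDDO-Im 30, against 8.08, 8.18, 9.73 and 14.46 after D3T in Nrf2-null mice, where all 4 D3T mice were higher. The genotype difference of Lcn2 was 6.49 (adjusted p = 0.02) with and 5.04 (adjusted p = 0.056) without that mouse, that of Saa2 6.07 (adjusted p = 0.017) and 4.88 (adjusted p = 0.046), and that of Orm2 5.46 (adjusted p = 0.0084) and 4.60 (adjusted p = 0.024). Over the 23 acute phase genes it passed for 6 with that mouse and 2 without it, always with the more positive difference in Wt. Scara5 gave 6.94, 6.36, 6.98 and 6.17 after CDDO-Im 30 and 8.71, 8.09, 8.04 and 9.58 after D3T in Nrf2-null mice, the reverse of the order in Wt. That Nrf2-null difference did not pass (-1.99, adjusted p = 0.2), and the genotype difference was 5.14 (adjusted p = 0.0042), or 4.82 (adjusted p = 0.011) without that mouse.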

How the data were processed

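Liver RNA had been hybridised to Affymetrix whole-genome mouse arrays, 1 mouse to an array. The authors preprocessed the scanned arrays by GCRMA, which corrects background by probe sequence, normalizes quantiles and summarises probe sets, and deposited log2 values for 45037 probe sets. Detection calls are not used here, so a low signal is not marked as present or absent on its array. The expression minimum given below stands in for such calls. A small offset between groups remained in the median of the probe sets above the expression minimum. Its cause was not tested, so counts are given on both scales.

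Of the probe sets, 34945 had 1 gene symbol, 932 several and 9160 none. Those at log2 4 or above on at least 3 arrays of any group (18935) were kept, 16472 of them with 1 symbol, and each of 9695 genes was represented by its probe set of highest mean. Another kept probe set of 87 of 4125 genes with several gave an opposite call. One limma fit (limma 3.58.1 in R 4.3.3, empirical Bayes with trend and robust) covered 10 groups of 4 mice, and p-values were Benjamini-Hochberg adjusted over all genes of a comparison, with a threshold of 0.05. The fit shares 1 estimate of spread over all groups. The scripts were tested on simulated data.

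Named genes were drawn from the 12 largest rises and 12 largest falls without overlap between the groups and with a higher mean of at least log2 6, up to 4 called members of each list, the 6 largest genotype differences and the study-named genes. Many list members and study-named genes under this rule are left out of the text. Among them are Hmox1 (Wt difference 1.05), Cdkn1a (1.7), Rpia (-1.49), Cirbp (-1.2) and the study-named Usp2 (-1.09), Arrdc3 (-1.17), Tob2 (0.69) and Pfkfb3 (0.58). Nfe2l2, Alb, Txnrd1, Arntl, Marco, Cd68, P4hb, Sec61b, the glutathione S-transferases called lower and the chaperones other than Creld2 that carry the promoter element were named outside this rule, after their values were seen. Members and lists were chosen with earlier results of these data known.

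Alternatives covered the samples in the fit, variance model, array weights, scaling, expression minimum, probe set choice, fold minimum, the methods' exact Wilcoxon test, a replicate block, the clock score as a covariate and leaving out each mouse. Leaving Nrf2-null D3T mouse 4 out of list counts was chosen after seeing the data.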

Additional observations from a re-analysis of the deposited data

Results flagged for a closer look

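In 16 of 244 groups of 4 mice 1 mouse lay far from the other 3, where chance alone sets apart about 1 in 20 groups. The size given is the gap to the nearest mouse over the group's whole range. In Wt CDDO-Im 30 mice it was 0.881 for Lss (9.63, the others 9.94 to 9.98), 0.830 for Orm2 (11.27, the others 12.20 to 12.39) and 0.845 for Lcn2 (10.38, the others 11.86 to 12.13). In the same group it was 0.872 for Scara5 (10.41, the others 9.61 to 9.71), 0.935 for Nr1h4 (11.16, the others 11.01 to 11.02), 0.841 for Gpat4 (8.66, the others 8.24 to 8.30) and 0.880 for the clock score (-2.63, the others -2.41 to -2.38). In Wt D3T mice it was 0.832 for Abcb1b (2.85, the others 2.91 to 2.92), 0.936 for Abcc1 (4.51, the others 3.76 to 3.81), 0.865 for Acaca (9.06, the others 9.73 to 9.84), 0.838 for Manf (11.70, the others 12.26 to 12.37) and 0.858 for F11 (10.79, the others 10.31 to 10.38). In Nrf2-null mice it was 0.942 for Cbr3 after CDDO-Im 30 (4.21, the others 4.00 to 4.02) and 0.873 for Sdf2l1 after CDDO-Im 30 (10.22, the others 9.59 to 9.67). After D3T it was 0.971 for Cbr3 (3.50, the others 4.00 to 4.01) and 0.854 for Saa2 (14.14, the others 8.90 to 9.67).

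The treatment difference itself differed between genotypes, by the limma contrast of Wt minus Nrf2-null, in 51 of the 110 named genes, against 15.8% of all genes. The named genes were chosen mostly for their Wt values and 6 for this contrast itself, so that share is no evidence of its own. Among detoxication genes it was more positive in Wt for Cbr3 (4.93, of uncertain size), Nqo1 (1.94), Srxn1 (2.11), Abcc4 (1.37), Abcb1b (1.74), Abcc2 (1.02), Ugt2b35 (1.20), Ugdh (0.84), Txnrd1 (0.91), Gstm3 (1.5) and Ces2b (3.23, also of uncertain size). It was more negative for Gstm5 (-0.82), Mgst3 (-1.02), Txnrd2 (-1.26) and Sult1c2 (-2.02). Among chaperones it was 2.89 for Creld2, 1.88 for Sdf2l1, 0.85 for Pdia3, 0.99 for Hspa5, 0.74 for Hsp90b1, 1.08 for Dnajc3, 0.40 for P4hb, 1.11 for Hspa8, 0.99 for Hsp90aa1 and 0.29 for Cct2.

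Among lipid and bile acid genes it was -4.87 for Cyp4a14, -3.99 for Acot3, -2.97 for Abcd2, -0.80 for Decr1, -1.35 for Srebf1, -1.47 for Pmvk, -1.02 for Stard4, -0.66 for Scap, -0.68 for Pemt, -0.70 for Ptdss2, -0.32 for Apoc4, -1.27 for Klb and -0.76 for Nr1h4. Among acute phase and immune cell genes it was 4.32 for Saa1, 6.07 for Saa2, 5.46 for Orm2, 6.49 for Lcn2, 3.73 for S100a8, 3.17 for S100a9 and -2.12 for Cd68. For the rest it was 7.38 for Moxd1, a value set against signals at the low end of the scale, 5.14 for Scara5, -2.28 for Agbl5, -1.38 for Cyp2c38, -4.63 for Tcf24 and -1.51 for Upp2. Without Nrf2-null D3T mouse 4 the contrast no longer passed for Sdf2l1 (adjusted p = 0.075), Hspa5 (0.051), Srebf1 (0.064), Stard4 (0.097), Scap (0.1), Abcb1b (0.053), Saa1 (0.083), Lcn2 (0.056), S100a9 (0.072), Hsp90aa1 (0.052), Cct2 (0.083), P4hb (0.058), Gstm5 (0.064) and Mgst3 (0.065).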

How the results depend on the processing

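In Wt liver the scale decided the split of calls: 1130 genes were higher and 971 lower with arrays centred, 733 and 1285 after another quantile normalization, against 431 and 2536 as deposited. A 1.5-fold minimum left 1116 genes (171 higher, 945 lower), and the methods' exact Wilcoxon test with that minimum, unadjusted, called 1090 (185 higher, 905 lower). In Nrf2-null liver, against 280, there were 3 genes (0 higher, 3 lower) with the groups fitted alone, where limma had called 1662 of all genes at an unadjusted p under 0.05 in the full fit. There were 927 (427 higher, 500 lower) with array weights, 160 (106 higher, 54 lower) with no expression minimum, 163 (97 higher, 66 lower) with the clock score as a covariate and 149 (97 higher, 52 lower) with the 1.5-fold minimum. The genotype difference gave 2557 genes (434 higher, 2123 lower) with array weights, 564 higher and 462 lower centred, 379 higher and 701 lower after quantile normalization, and 973 (805 lower) with the 1.5-fold minimum. The cause of these changes was not tested, beyond the fewer genes that a fold minimum can pass.

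Leaving out 1 mouse gave 2323 to 3072 genes in Wt (341 to 407 higher, 1968 to 2685 lower), 116 to 379 in Nrf2-null liver (73 to 241 higher, 43 to 147 lower), 1120 to 1743 for the genotype difference (173 to 263 higher, 921 to 1509 lower) and a clock score difference of -2.41 to -1.79, with an exact permutation p = 0.029 without any 1 of the D3T mice and 0.057 without any 1 of the CDDO-Im 30 mice. Over 110 named genes and 20 settings, 2023 of 2196 values kept their direction and side of the threshold, 133 lost and 38 gained a call, and 2 reversed. Those were Arntl, at -0.61 with the clock score, of which it is a part, as a covariate (limma adjusted p = 0.04), and Hspa8, at -1.25 in its probe set of largest variance (adjusted p = 0.064). Calls of Elovl6, Pdia3, Ptdss2 and Tef were lost with the probe set of largest variance (adjusted p = 0.082, 0.091, 0.14 and 0.19), and those of Canx, Hspa8, Per3 and Tef with the mean of probe sets (adjusted p = 0.051, 0.58, 0.13 and 0.088). The replicate number as a block gave 2946, 292 and 1548 genes, and same-numbered mice shared only a number (correlations of their deviations -0.167 to 0.07 in Wt and -0.086 to 0.111 in Nrf2-null liver). With 4 mice a group and no detection call, differences of genes with signals near 2 have no reliable size. Those of Cbr3 from its flat low signals, and of Ces2b from its low D3T signals, are uncertain in size.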
